A study of Mus musculus with 2 samples.

Results

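The report concerns 10 transcription factor genes of the B lineage, Ebf1, Pax5, Spib, Mef2c, Sox4, Bhlhe41, Zbtb32, Bach2, Irf4 and Irf8, chosen by symbol among the 27998 genes of the count tables. All 10 were listed, each as 1 gene. They were measured by single-cell RNA sequencing (10x Genomics 3' v2) of peripheral blood mononuclear cells from female C57Bl/6 mice aged 10 weeks. One library came from MvkV377I/del91 mice, in which mevalonate kinase, an enzyme of the mevalonate pathway of sterol and isoprenoid synthesis, carries the V377I allele and the del91 allele, and the other from wildtype (Mvk+/+) mice. The blood of 3 mice was pooled for each library, so genotype, pool and library coincide and cannot be told apart. No test is possible, and the values compare 2 libraries. Intervals are 95% intervals and cover counting error only.

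Ebf1 and Pax5 commit progenitors to the B lineage and keep mature B cells B cells, in part by switching on the genes of the B cell receptor and its co-receptors. The other factors act at later steps: the ETS factor Spi-B and the interferon regulatory factors Irf4 and Irf8 bind composite DNA elements together with ETS partners, Mef2c serves B cell survival and proliferation, and Bach2 holds back plasma cell differentiation. Sox4 is a factor of early B cell progenitors, and Bhlhe41 is known from B-1 cells, an innate-like B cell type. Zbtb32 is a zinc finger repressor described in memory B cells.

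After filtering, the mutant library held 4190 cells and the wildtype library 5225, from 14513059 and 15385199 UMIs (unique molecular identifiers, 1 per captured RNA molecule). The libraries shared 28 cell barcodes. Mvk itself had 47 UMIs in mutant cells (4.98 CPM, that is UMIs scaled to a common total, interval 3.66 to 6.63) and 65 in wildtype cells (5.45 CPM, 4.21 to 6.95), and whether the 2 alleles alter the counted 3' end was not established, so Mvk does not check the labels. B cells, set by UMIs of B cell markers such as Cd79a, Cd79b, Ms4a1 and Ly6d, made up 30.1% of mutant cells (1261, with 2577112 UMIs and a median of 1588 per cell) and 21.1% of wildtype cells (1105, with 2186069 UMIs and a median of 1582). NK cells made up 4.25% of mutant and 16.0% of wildtype cells, and T cells 51.0% and 51.2%. Red cell RNA differed between the libraries: haemoglobin genes summed to 13995 CPM in mutant and 284 CPM in wildtype B cells, and 18 mutant B cells and 1 wildtype B cell had over 1% haemoglobin UMIs. The lineage markers of other blood cells were low in B cells: the 6 T cell markers summed to 211 CPM in mutant and 207 CPM in wildtype B cells, the 6 NK markers to 24.8 and 71.4 CPM, and the 8 monocyte markers to 66.0 and 38.4 CPM, with 0 and 2 of these 8 at 0. The rule that sets B cells limits the share of these same markers, so their low sums follow from it and do not check purity.

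B cells were split by 2 readouts that are not members, Fcer2a, the low-affinity IgE receptor CD23 of mature B cells, and the sum of Vpreb3 and Cd24a, which are known from immature B cells. Fcer2a-positive B cells numbered 343 (27.2% of mutant B cells) and 340 (30.8% of wildtype B cells). Vpreb3/Cd24a B cells, with at least 2 UMIs of that pair and none of Fcer2a, numbered 272 in the mutant library (21.6%) against 166 in the wildtype library (15.0%), a ratio of shares of 1.44 (1.18 to 1.75). A both-marker class held 107 mutant and 119 wildtype cells, and other B cells, which met neither rule, 539 and 480. The split is a range rather than a set of types: 513 of the mutant and 472 of the wildtype B cells had 1 or 2 UMIs of Vpreb3 and Cd24a together. The Vpreb3/Cd24a class is called by its rule, because 9 other genes of immature B cells summed to 226 CPM there and to 219 CPM in Fcer2a-positive B cells of the mutant library, against 217 and 253 CPM in the wildtype library, nearly all of it Tspan13, while 12 genes of B-1 and memory B cells summed to 4740 CPM there and to 1638 CPM in Fcer2a-positive cells of the mutant library, against 3785 and 1345 CPM in the wildtype library.

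Ebf1 and Pax5, the lineage-defining pair, were spread over all B cells. Ebf1 (chromosome 11, 44617317 to 45008091, plus strand, GRCm38) stood at 1336 CPM in mutant and 1379 CPM in wildtype B cells and was detected in 89.9% and 88.1% of them. In T cells, which should lack it, it was at 21.8 and 13.9 CPM, in 4.40% of mutant and 2.95% of wildtype T cells, although T cells were deeper (medians of 2116.5 and 2302 UMIs). Pax5 (chromosome 4, 44524757 to 44710487, minus strand) had 166 CPM in mutant B cells against 178 CPM in wildtype B cells, in 28.9% and 28.2% of the cells, against 1.08% of mutant and 0.822% of wildtype T cells. Among the 4 B classes Ebf1 ranged from 1172 CPM in Vpreb3/Cd24a to 1629 CPM in Fcer2a-positive cells of the mutant library, and from 1271 CPM in other B to 1496 CPM in Fcer2a-positive cells of the wildtype library. For both genes the intervals of neighbouring B classes in this order overlapped in each library, and each B class lay above T, NK and monocytes. The Ebf1 intervals of the highest and lowest B class did not overlap. They were 1526 to 1737 and 1093 to 1255 CPM in the mutant library, and 1400 to 1597 and 1198 to 1348 CPM in the wildtype library.

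Mef2c, Irf8 and Bach2 were not limited to B cells. Mef2c (chromosome 13, 83504034 to 83667080, plus strand) was at 1081 CPM in Fcer2a-positive and 578 CPM in Vpreb3/Cd24a B cells of the mutant library, and at 1061 and 577 CPM in the same classes of the wildtype library. Monocytes followed at 206 CPM in the mutant and 290 CPM in the wildtype library, with NK cells at 56.2 and 78.0 CPM. That order was the same in both libraries, and the intervals of other B, Vpreb3/Cd24a B, monocytes, NK cells and T cells did not overlap from one to the next.

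Irf8 (chromosome 8, 120736358 to 120756694, plus strand), a factor of B cells, monocytes and dendritic cells, was highest in NK cells. It reached 1497 CPM in mutant and 1460 CPM in wildtype NK cells, detected in 88.8% and 84.7% of them, against 307 CPM in mutant and 342 CPM in wildtype B cells and 212 and 199 CPM in monocytes. T cells were at 14.9 CPM in the mutant and 21.9 CPM in the wildtype library. The interval of NK cells lay above that of every other class in each library. Bach2 (chromosome 4, 32238804 to 32586108, plus strand), which also restrains effector differentiation in T cells, was at 94.3 CPM in mutant and 97.4 CPM in wildtype B cells and at 45.9 and 49.4 CPM in T cells. It was detected in 9.55% of mutant and 11.02% of wildtype T cells. Irf4 (chromosome 13, 30749226 to 30766976, plus strand), the regulator of class switching and plasma cell formation, was low, at 25.2 CPM in each library (65 UMIs in mutant and 55 in wildtype B cells), with no B class apart from another.

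**Figure D1:**
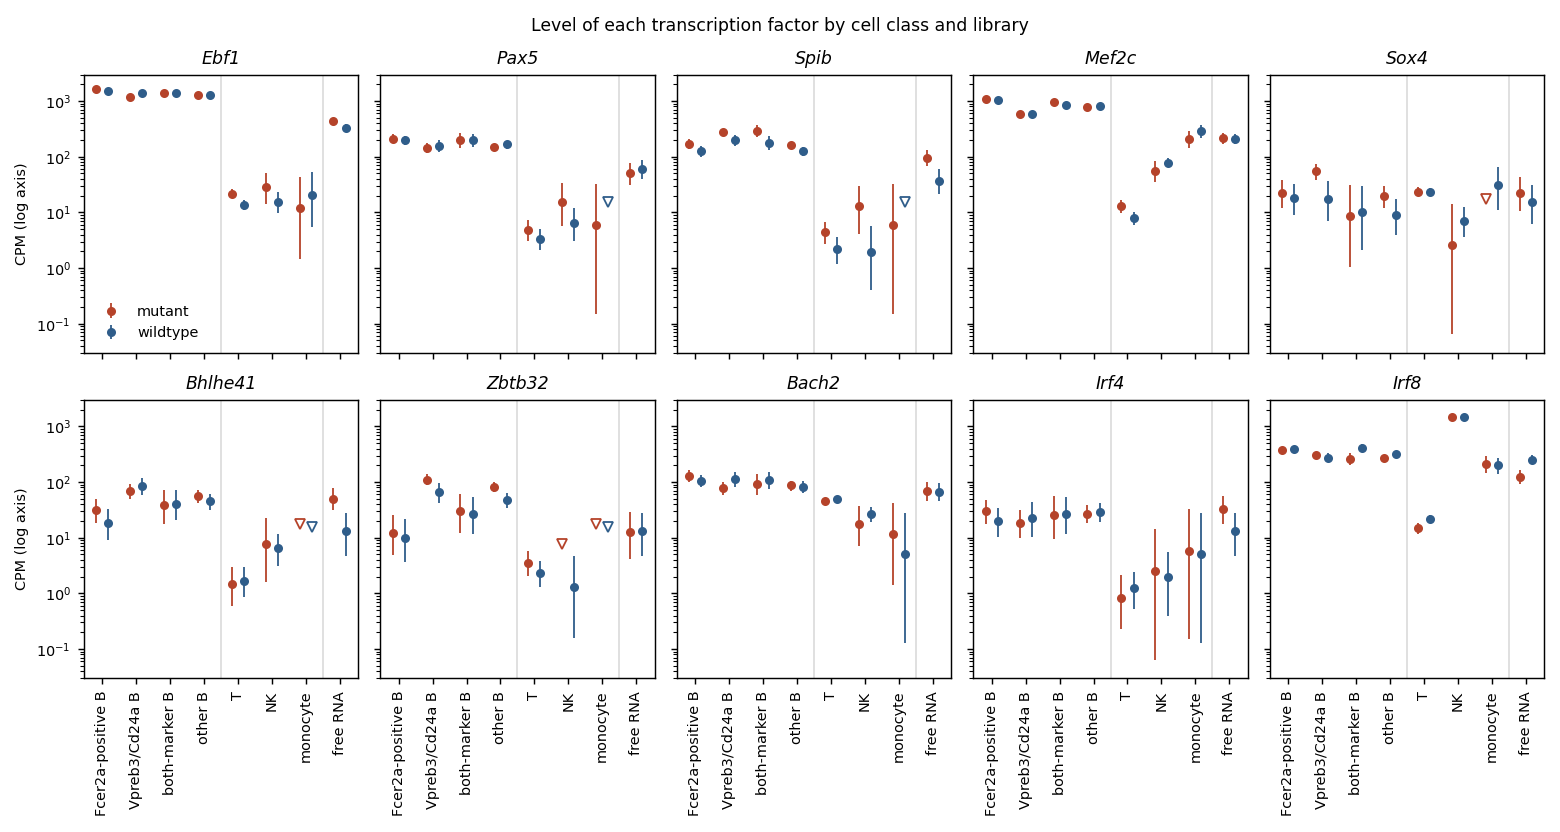
CPM of each factor (log axis) in the 4 B classes, T cells, NK cells, monocytes and free RNA (barcodes with at most 20 UMIs), for the mutant (red) and wildtype (blue) library. Points are summed UMIs with 95% Poisson intervals, and open triangles mark the limit of 3 counts where no UMI was seen. Irf8 is highest in NK cells, at 1497 CPM in the mutant and 1460 CPM in the wildtype library, and Bhlhe41 and Zbtb32 are higher in Vpreb3/Cd24a than in Fcer2a-positive B cells.

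The comparisons of B classes and genotypes turn mainly on Spib, Sox4, Bhlhe41 and Zbtb32, and their promoters are shown for that reason. The sequences are from RefSeq on GRCm38.p6, read 5′ to 3′ on the gene's strand (minus for all 4), and end at the last base before the annotated starts of both RefSeq and the GENCODE gene. They lie at chr7:44532072-44532321 for Spib, chr13:28953714-28953949 for Sox4, chr6:145865559-145865670 for Bhlhe41 and chr7:30598910-30599159 for Zbtb32. Capitals mark matches to the motifs searched.
Spib promoter: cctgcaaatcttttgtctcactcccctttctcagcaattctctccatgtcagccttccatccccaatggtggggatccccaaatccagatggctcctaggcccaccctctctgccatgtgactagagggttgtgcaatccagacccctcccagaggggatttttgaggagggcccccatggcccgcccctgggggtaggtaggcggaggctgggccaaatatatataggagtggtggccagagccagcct
Sox4 promoter: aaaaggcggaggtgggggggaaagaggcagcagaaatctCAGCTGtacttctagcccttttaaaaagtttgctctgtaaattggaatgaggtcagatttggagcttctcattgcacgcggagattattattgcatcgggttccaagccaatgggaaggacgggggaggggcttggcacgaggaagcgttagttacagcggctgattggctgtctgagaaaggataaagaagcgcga
Bhlhe41 promoter: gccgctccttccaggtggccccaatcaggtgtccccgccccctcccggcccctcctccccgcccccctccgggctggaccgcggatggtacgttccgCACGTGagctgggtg
Zbtb32 promoter: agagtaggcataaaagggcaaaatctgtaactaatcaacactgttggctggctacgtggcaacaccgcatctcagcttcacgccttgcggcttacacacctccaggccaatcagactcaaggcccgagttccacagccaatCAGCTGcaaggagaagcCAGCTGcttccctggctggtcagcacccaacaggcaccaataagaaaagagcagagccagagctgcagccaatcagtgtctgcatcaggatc

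The motifs searched on both strands of the 250 bases before the RefSeq starts were AGAGGAA and GGAAGTG (ETS sites bound by Spi-B and PU.1), CACGTG and CAGCTG (E-boxes), TTTGCAT (octamer core), and the spaced IRF, ETS-IRF composite, Ebf1 and Mef2 motifs. Bhlhe41, whose own protein family binds the E-box CACGTG, held 1 copy of it at -153 to -148, a motif in 6.02% of the 32851 promoters of the RefSeq table. Zbtb32 held 2 copies of the E-box CAGCTG, at -109 to -104 and at -92 to -87, and Sox4 held 1, at -211 to -206. CAGCTG stood in 13.001% of all promoters. Among the other members, Bach2 held an ETS-IRF composite (2.30% of all promoters), Irf4 an AGAGGAA (8.55%) and Ebf1 an IRF match at one start (2.98%) and an AGAGGAA at the other. The windows of Spib, Pax5, Mef2c and Irf8 held none of these letters. A match is a description of the sequence and not a measured site.

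Spib lies on the minus strand of chromosome 7 (44525993 to 44532071). It reached 276 CPM in Vpreb3/Cd24a and 171 CPM in Fcer2a-positive B cells of the mutant library, and 196 and 127 CPM in the same classes of the wildtype library. The ratio of Vpreb3/Cd24a over Fcer2a-positive cells in the wildtype library was 1.54 (1.11 to 2.14). In T cells Spib was at 4.40 and 2.16 CPM, in 0.936% of mutant and 0.523% of wildtype cells. The Vpreb3/Cd24a and both-marker classes held the highest levels in each library, with overlapping intervals, and the wildtype both-marker interval also overlapped that of Fcer2a-positive cells.

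Bhlhe41 (chromosome 6, 145858243 to 145865558, minus strand) and Zbtb32 (chromosome 7, 30589681 to 30598909, minus strand) had the same order of classes in both libraries: Vpreb3/Cd24a, other B, both-marker, then Fcer2a-positive B cells. Zbtb32 was at 110 CPM in Vpreb3/Cd24a and 12.2 CPM in Fcer2a-positive cells of the mutant library, and at 65.5 and 9.92 CPM in the wildtype library, where the ratio of these classes was 6.60 (2.66 to 19.6). Bhlhe41 was at 68.7 and 31.5 CPM in the same 2 classes of the mutant library and at 85.6 and 18.2 CPM in the wildtype library, a wildtype ratio of 4.71 (2.33 to 10.3). For both genes the intervals of Vpreb3/Cd24a and other B cells overlapped. Neither had a UMI in monocytes, where the limit of 3 counts allows up to 17.7 CPM in the mutant and 15.3 CPM in the wildtype library.

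Sox4 (chromosome 13, 28948919 to 28953713, minus strand), an HMG box factor, was found in T cells as well as in B cells. T cells held 23.7 CPM in the mutant and 23.3 CPM in the wildtype library. Within B cells it reached 54.4 CPM in Vpreb3/Cd24a cells of the mutant library and 17.6 CPM in those of the wildtype library (38 and 7 UMIs). The wildtype monocyte value of 30.6 CPM came from 1 cell, and mutant monocytes had no Sox4 UMI (limit 17.7 CPM). Sox4 overlaps Gm26735 near its 3' end, Irf8 overlaps Gm20388, and Ebf1, Pax5 and Bach2 overlap other listed genes. Whether reads were counted by strand is not given in the sources used here, so these values carry that uncertainty.

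Between the genotypes, most of the factors were close to equal in B cells, and Sox4, Zbtb32 and Spib were higher in the mutant library. A gene was called when its CPM differed by at least 1.5-fold with an interval off 1, among genes with at least 50 UMIs in the 2 libraries together. All 10 members were measured in B cells, and 2 were called, both higher in the mutant, where 4.04% of all 6810 measured genes were called (2.28% higher and 1.76% lower). By the interval alone, 3 members were higher and 1 was lower, against 6.53% and 6.18% of all measured genes.

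Sox4 was at 28.7 CPM in mutant B cells (74 UMIs in 55 cells) and 13.3 CPM in wildtype B cells (29 UMIs in 24 cells), a ratio of 2.16 (1.39 to 3.45). Zbtb32 was at 69.1 CPM (178 UMIs in 105 cells) in mutant and 37.5 CPM (82 UMIs in 49 cells) in wildtype B cells, a ratio of 1.84 (1.41 to 2.42). Spib was at 207 CPM (533 UMIs) in mutant and 145 CPM (318 UMIs) in wildtype B cells, a ratio of 1.42 (1.24 to 1.64), below the 1.5-fold of the call. The mutant value lay above the wildtype interval for each of these 3 genes.

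Thinning the cells to equal depth changed the 3 differently. It was a single random draw and also gave every cell equal weight, so it does not separate depth from weighting. With every cell thinned to 800 UMIs, Spib was detected in 14.6% of mutant and 9.59% of wildtype B cells and its ratio was 1.63 (1.30 to 2.05), a call. Zbtb32 was then detected in 1.59% of mutant and 1.27% of wildtype B cells, 20 and 14 cells, with a ratio of 1.08 (0.544 to 2.19). Sox4 was detected in 1.90% and 1.63% of the thinned cells, with a ratio of 1.40 (0.778 to 2.59). At this equal depth the calls of Sox4 and Zbtb32 were lost, and counts this low do not show whether the libraries differ.

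The remaining members lay within 1.2-fold when all B cells were summed. Ebf1 had a ratio of 0.969 (0.922 to 1.02), Pax5 of 0.933 (0.812 to 1.07), Mef2c of 0.960 (0.901 to 1.02) and Bach2 of 0.968 (0.8018 to 1.17). Bhlhe41 was at 52.4 CPM in mutant and 44.4 CPM in wildtype B cells, a ratio of 1.18 (0.903 to 1.55). Without cells of 3000 or more UMIs, an alternative chosen after seeing the data, the Bhlhe41 ratio was 1.98 (1.19 to 3.40), past the call. Irf4 had a ratio of 1.002 with a wide interval (0.689 to 1.46), and Irf8 was slightly lower in the mutant library, at 0.896 (0.810 to 0.991).

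Reweighting by the shares of the 4 B classes moved the ratios of Spib and Sox4 little and those of Zbtb32 and Bhlhe41 more. The observed ratios were 1.42 for Spib, 2.16 for Sox4, 1.84 for Zbtb32 and 1.18 for Bhlhe41. Weighting the wildtype class levels by the mutant shares of B cell UMIs gave a ratio of 1.03 for Spib, 1.02 for Sox4, 1.12 for Zbtb32 and 1.12 for Bhlhe41. The ratios left after that weighting were 1.38 for Spib, 2.13 for Sox4, 1.64 for Zbtb32 and 1.05 for Bhlhe41.

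Within the classes, the ratio of Spib was above 1 in each of the 4. In both-marker cells it was called, at 292 CPM in mutant and 177 CPM in wildtype cells, a ratio of 1.65 (1.14 to 2.42), where 4.13% of measured genes were called. The ratio was 1.41 (1.08 to 1.85) in Vpreb3/Cd24a, 1.30 (1.01 to 1.66) in other B and 1.347 (0.989 to 1.84) in Fcer2a-positive B cells. Only the Fcer2a-positive interval reached 1. Zbtb32 was called in Vpreb3/Cd24a cells at 1.68 (1.07 to 2.73) and in other B cells at 1.72 (1.18 to 2.55), where 4.55% and 4.36% of measured genes were called. Irf8 was called lower in both-marker cells, at 262 CPM in mutant and 411 CPM in wildtype cells, a ratio of 0.639 (0.463 to 0.875). No member was called in Fcer2a-positive cells, where 3.85% of genes were, and Ebf1 in Vpreb3/Cd24a cells was lower by the interval, at 0.831 (0.745 to 0.927). Sox4 in Vpreb3/Cd24a cells had a ratio of 3.08 (1.36 to 8.18) but did not reach 50 UMIs.

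**Figure D2:**
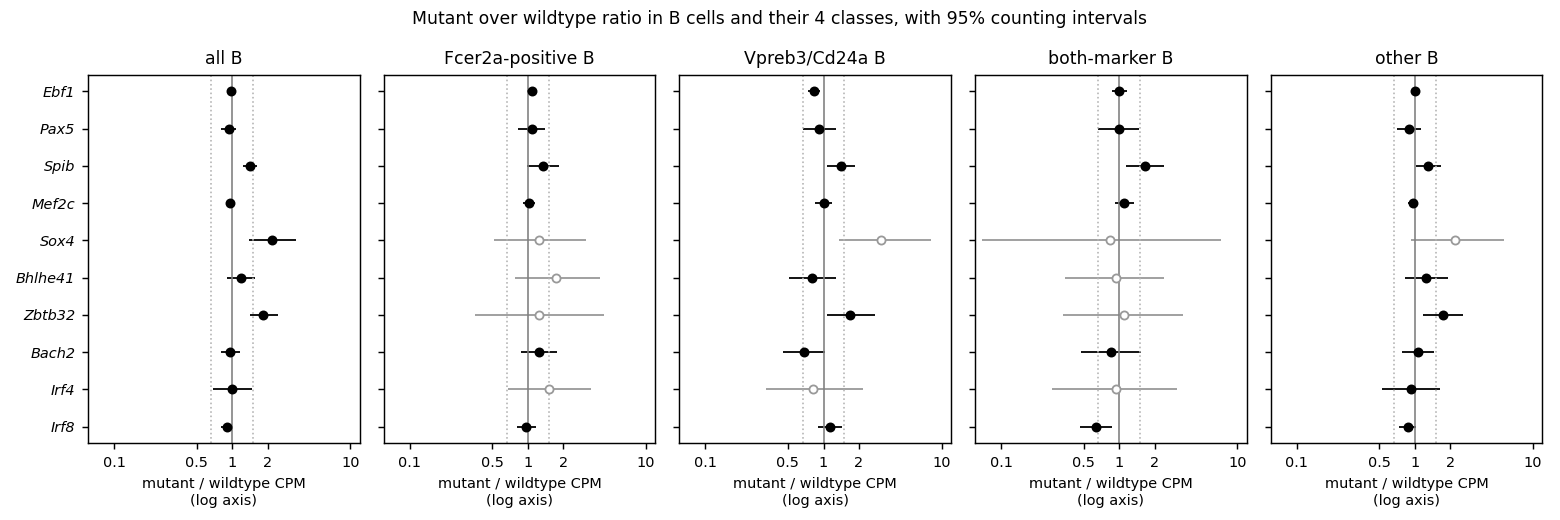
Ratio of mutant over wildtype CPM (log axis) of each factor in all B cells and the 4 B classes. Bars are exact 95% counting intervals, open grey points have under 50 UMIs in the 2 libraries together, and dotted lines mark 1.5-fold. Spib lies right of 1 in every panel, and Pax5 and Mef2c stay near 1. Ebf1 does so except in Vpreb3/Cd24a cells, at 0.831 with an interval below 1.

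Because the class rule sums Vpreb3 and Cd24a, all B cells were also grouped by their Vpreb3 UMIs alone, a grouping chosen after the values were seen. Cells with at least 2 Vpreb3 UMIs made up 11.3% of mutant (142) and 8.24% of wildtype B cells (91), a ratio of shares of 1.37 (1.04 to 1.80). Their median depth, 1563 UMIs for mutant and 1545 for wildtype cells, was close to that of B cells without Vpreb3, 1593 and 1606.5 UMIs.

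Spib went with Vpreb3 in each library. Mutant cells held 158 CPM of Spib with no Vpreb3 UMI, 239 CPM with 1 and 499 CPM with at least 2. Wildtype cells held 128, 141 and 304 CPM in the same order. The ratio of the highest group to the lowest was 3.16 (2.57 to 3.89) in the mutant and 2.37 (1.74 to 3.19) in the wildtype library.

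Ebf1 and Irf8 were also higher in cells with at least 2 Vpreb3 UMIs than in cells with none, and Pax5 was by its interval in the wildtype library. The ratio was 1.40 (1.26 to 1.54) in the mutant and 1.41 (1.25 to 1.58) in the wildtype library for Ebf1, and 1.85 (1.52 to 2.24) and 1.49 (1.18 to 1.87) for Irf8. For Pax5 it was 1.33 (0.977 to 1.79) and 1.54 (1.10 to 2.12). Mef2c was nearly level, at 0.957 and 0.948, and Zbtb32 ran the other way, at 0.171 (0.0460 to 0.446) in the mutant library and 0.457 (0.122 to 1.22) in the wildtype library. In the classes set by Vpreb3 and Cd24a together, Zbtb32 was instead highest in Vpreb3/Cd24a cells, so its class level did not follow Vpreb3. Ebf1 and Irf8 were not higher in Vpreb3/Cd24a than in Fcer2a-positive cells. That ratio was 0.719 (0.654 to 0.791) in the mutant and 0.943 (0.847 to 1.05) in the wildtype library for Ebf1. For Irf8 it was 0.814 (0.671 to 0.987) and 0.704 (0.556 to 0.887). Sox4 was at 18.5, 43.9 and 76.4 CPM across the 3 groups of the mutant library and at 9.82, 24.3 and 21.3 CPM in the wildtype library, the last from 4 UMIs.

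Between the genotypes, the cells with at least 2 Vpreb3 UMIs are given as values, with no count of calls. Spib was at 499 CPM in mutant and 304 CPM in wildtype cells (ratio 1.64, 1.20 to 2.27). Sox4 was at 76.4 and 21.3 CPM (ratio 3.58, 1.21 to 14.3), from 21 mutant and 4 wildtype UMIs, under the minimum of 50. Ebf1 was at 0.959 (0.832 to 1.11) and Irf8 at 1.03 (0.786 to 1.37) in the same cells. The mature B cell genes Fcer2a and Cr2, the complement receptor CD21, were lower there in the mutant library, with ratios of 0.563 (0.382 to 0.826) and 0.364 (0.134 to 0.914). Vpreb3 itself is not compared, because its UMIs chose these cells. In cells without Vpreb3 the Spib ratio was 1.23 (1.03 to 1.47).

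**Figure D3:**
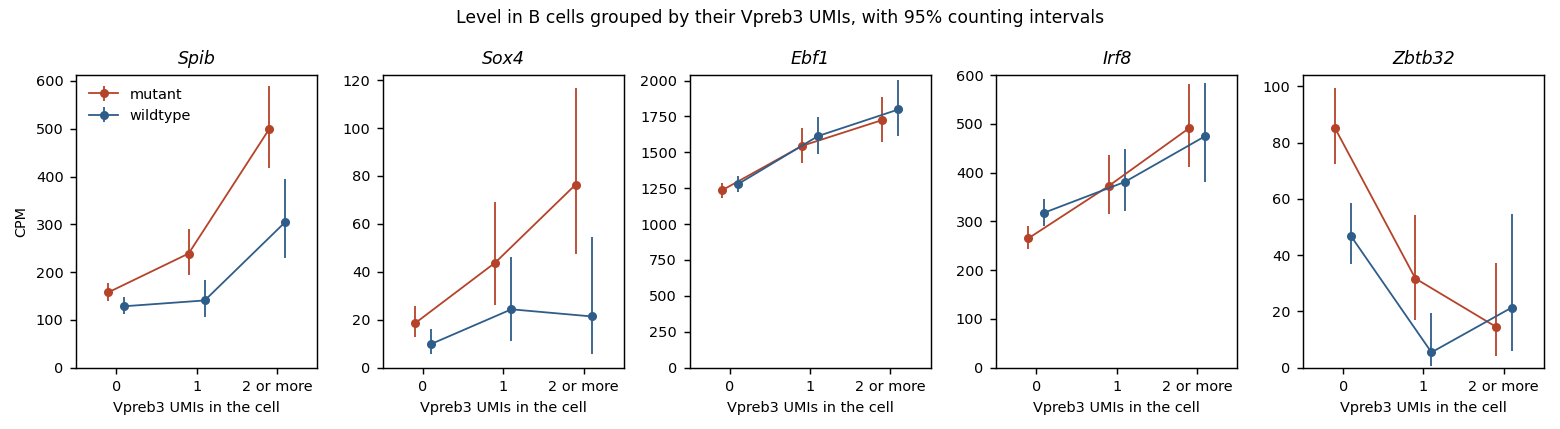
CPM of 5 factors in B cells grouped by their number of Vpreb3 UMIs, in the mutant (red) and wildtype (blue) library, with 95% Poisson intervals. Spib reaches 499 CPM in mutant and 304 CPM in wildtype cells with at least 2 Vpreb3 UMIs, Ebf1 and Irf8 are higher in cells with at least 2 Vpreb3 UMIs than in cells with none in both libraries, and Zbtb32 is highest in cells without Vpreb3.

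Zbtb32 or Bhlhe41 was found in a small set of deep B cells, and most of these cells held only 1 of the 2. Cells with a UMI of either made up 12.1% of mutant (152) and 8.24% of wildtype B cells (91), with median depths of 4026 and 4326 UMIs, against 1551 and 1553 UMIs for the rest. The ratio of shares was 1.46 (1.12 to 1.92), and 1.53 (0.945 to 2.53) after thinning to 800 UMIs. Of cells with Bhlhe41, 44.0% in the mutant (37 of 84) and 32.3% in the wildtype library (20 of 62) also had Zbtb32. Among cells without Bhlhe41, 5.78% and 2.78% had it. After thinning to 800 UMIs, 3 of 32 mutant and 3 of 17 wildtype cells with Bhlhe41 had Zbtb32. Among thinned cells without Bhlhe41, 1.38% of mutant and 1.01% of wildtype cells had it. The cells with either gene were chosen by the 2 genes, so only the other members are compared.

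Bach2, Mef2c, Irf8, Ebf1 and Pax5 were lower in these cells in both libraries. Bach2 was at 23.7 CPM in cells with Zbtb32 or Bhlhe41 and 117 CPM in cells without in the mutant library, a ratio of 0.202 (0.111 to 0.341), and at 20.4 and 114 CPM in the wildtype library, 0.179 (0.0762 to 0.359). Mef2c had ratios of 0.354 (0.306 to 0.408) in the mutant and 0.398 (0.335 to 0.472) in the wildtype library, Irf8 of 0.332 and 0.466, Ebf1 of 0.414 and 0.503, and Pax5 of 0.541 and 0.630, all with intervals below 1. Irf4 did not differ beyond its interval, at 1.09 (0.587 to 1.93) and 1.28 (0.614 to 2.47). Spib was at 0.496 (0.383 to 0.635) in the mutant and 1.18 (0.883 to 1.55) in the wildtype library, and the difference between these ratios was not tested.

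Other genes also differed between these cells and the rest. Ahnak, Plac8 and Cd9, all known from B-1 or memory B cells, had ratios of 3.33, 2.71 and 2.97 in the mutant and 5.33, 3.32 and 4.52 in the wildtype library. Fcer2a was at 0.190 and 0.192 and Cr2 at 0.398 and 0.0615. Jchain, the joining chain of secreted antibody, was at 6.15 (2.32 to 18.0) and 18.3 (7.30 to 54.9), from low levels of 22.1 and 61.3 CPM in the cells with Zbtb32 or Bhlhe41. Only 10 of 152 mutant and 6 of 91 wildtype cells with Zbtb32 or Bhlhe41 held it, against 5 and 4 cells without. Jchain thus came from few cells, and its intervals do not cover the spread between cells.

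Because detection picks deep cells, the comparison was repeated within B cells of at least 3000 UMIs. These were 101 with and 86 without in the mutant and 64 with and 77 without in the wildtype library. Median depth still differed, at 4822 UMIs with and 3857 without in the mutant library. In the wildtype library it was 4914.5 UMIs with and 3721 without. Bach2 remained lower, at 0.218 (0.0621 to 0.632) and 0.137 (0.0476 to 0.325). Mef2c was at 0.449 and 0.380, Irf8 at 0.456 and 0.459, Ebf1 at 0.640 and 0.488 and Pax5 at 0.613 and 0.572, again with intervals below 1. Spib was at 0.644 (0.442 to 0.939) in the mutant and 1.17 (0.757 to 1.82) in the wildtype library, and these intervals overlap. Ahnak, Plac8, Cd9 and Jchain lay nearer to 1 than over all B cells in both libraries. Ahnak was at 1.25 (0.959 to 1.64) in the mutant and 3.31 (2.19 to 5.14) in the wildtype library, Plac8 at 1.54 and 2.26 and Cd9 at 1.65 and 2.24. Jchain was at 2.13 (0.658 to 8.97) and 3.75 (1.49 to 11.2), and Cd5, also known from B-1 cells, at 0.536 (0.196 to 1.42) and 1.31 (0.358 to 5.24). Cd5 is also among the T cell markers that count against a B cell call, so its values in B cells are limited by the class rule. Deep cells without Zbtb32 or Bhlhe41 were themselves unlike between the libraries: Bach2 was at 42.5 CPM in mutant and 130 CPM in wildtype cells, Ebf1 at 824 and 1310 CPM, and the haemoglobin gene Hba-a1 at 12121 and 19.0 CPM. The part of red cell RNA in that difference was not tested.

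Leaving out every cell with Zbtb32 or Bhlhe41 was an alternative chosen after seeing the data. It gave a Spib ratio of 1.67 (1.43 to 1.96) and a Sox4 ratio of 2.399 (1.49 to 3.97) in the remaining B cells, both past the call. Ebf1 in those cells was at 1560 CPM in the mutant and 1513 CPM in the wildtype library.

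**Figure D4:**
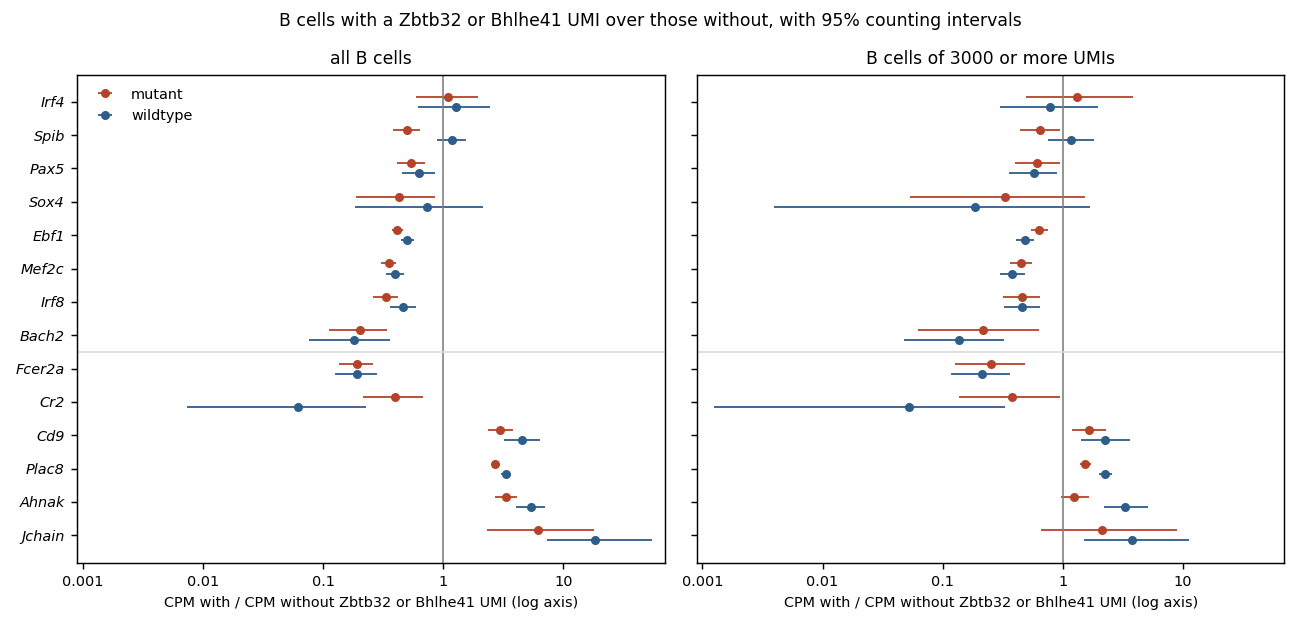
Ratio of CPM (log axis) in B cells with a Zbtb32 or Bhlhe41 UMI over B cells without, for all B cells (left) and those of at least 3000 UMIs (right), in the mutant (red) and wildtype (blue) library, with 95% counting intervals. The upper 8 rows are members and the lower 6 other B cell genes. Bach2, Mef2c, Irf8, Ebf1 and Pax5 lie left of 1 in both panels, and Cd9 and Plac8 lie right of it.

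Outside B cells, 2 members were called, both in T cells, where 3.46% of measured genes were. Ebf1 was at 21.8 CPM in mutant and 13.9 CPM in wildtype T cells, a ratio of 1.57 (1.17 to 2.11), and Mef2c at 12.8 and 7.85 CPM, a ratio of 1.63 (1.10 to 2.41). These levels lie far below those of B cells. The B cell markers were also higher in mutant T cells, summing to 163 CPM against 111 CPM in wildtype T cells. Ebf1 also differed in the free RNA, where 8.85% of measured genes were called, at 430 CPM in mutant and 330 CPM in wildtype barcodes of at most 20 UMIs, while Mef2c was at 215 and 208 CPM there, and the part of free RNA in the T cell values was not tested. Irf8 had a ratio of 0.680 (0.504 to 0.910) in T cells, short of the call, with free RNA at 124 CPM in the mutant and 254 CPM in the wildtype library. Irf8 in NK cells had an interval that included 1, at 1.03 (0.935 to 1.12), and no member was called in NK cells or monocytes, where 5.17% and 5.79% of genes were.

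Other genes of the same network gave no call between the libraries in B cells. Of 40 further transcription factors of B cells, 33 were measured and 0 were called, with log2 ratios from -0.42 to 0.55 and a median of -0.026, against 0.0080 over all measured genes. By the interval alone 5 of the 33 were higher and 7 lower, against 6.53% and 6.18% of all measured genes, and intervals are narrower for genes with more UMIs. Klf2, which governs lymphocyte trafficking, had a ratio of 1.03 (1.004 to 1.06), Foxp1, which serves B cell development and quiescence, 0.926 (0.864 to 0.992), and Ets1 0.979 (0.913 to 1.05). Among 15 relatives of the members' own families, 11 were measured and 0 called, with Irf2 at 0.981, Spi1 (PU.1, the ETS partner of Irf4 and Irf8) at 0.840 and Irf5 at 1.14. Mef2b and Ebf4 had no UMI in B cells.

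Known targets of Pax5 and Ebf1 gave no call either. All 20 on the list were measured, 0 were called, and 4 were higher and 4 lower by the interval, although some of them, such as Cd79a, Cd79b, Vpreb3 and Cd24a, also set the cell classes. Of all measured genes, 6.53% were higher and 6.18% lower by the interval. Cd79a and Cd79b, the signalling chains of the B cell receptor, had ratios of 1.05 and 1.10, and Bank1, a B cell scaffold protein, 0.868. The 8 genes of MHC class II presentation, with their regulator Ciita among them, were all lower by the interval, against 6.18% of all measured genes. None was called, and their median log2 ratio was -0.25. Intervals are narrower for genes with more UMIs, so a small difference can put them off 1. Cd74 was at 0.899 (0.890 to 0.909), H2-Ab1 at 0.835 and H2-Aa at 0.846.

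Lists that describe the state of the B cells were also read. Of 9 genes of mature B cells, all measured, 0 were called and the median log2 ratio was -0.16, with Ccr7 at 0.994, Fcmr at 0.959 and Cd55 at 0.867. By the interval alone 1 of the 9 was higher and 4 were lower, against 6.53% and 6.18% of all measured genes. Of 12 genes of B-1 and memory B cells, 9 were measured and 2 were called higher in the mutant library, where 2.28% of all measured genes were. They were S100a6 at 2.18 (2.03 to 2.34) and Cd9 at 1.68 (1.37 to 2.06). Plac8 was at 1.31 and Mzb1 at 1.10, and the median log2 ratio of the list was 0.39. By the interval alone 6 of its 9 measured genes were higher and 0 lower. Of 9 listed genes of immature B cells, Tspan13 alone was measured, at 0.918 (0.813 to 1.04). Cd93, a receptor of immature B cells, had 18 UMIs in mutant and 4 in wildtype B cells, and Myb, a progenitor factor, 22 and 7.

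**Figure D5:**
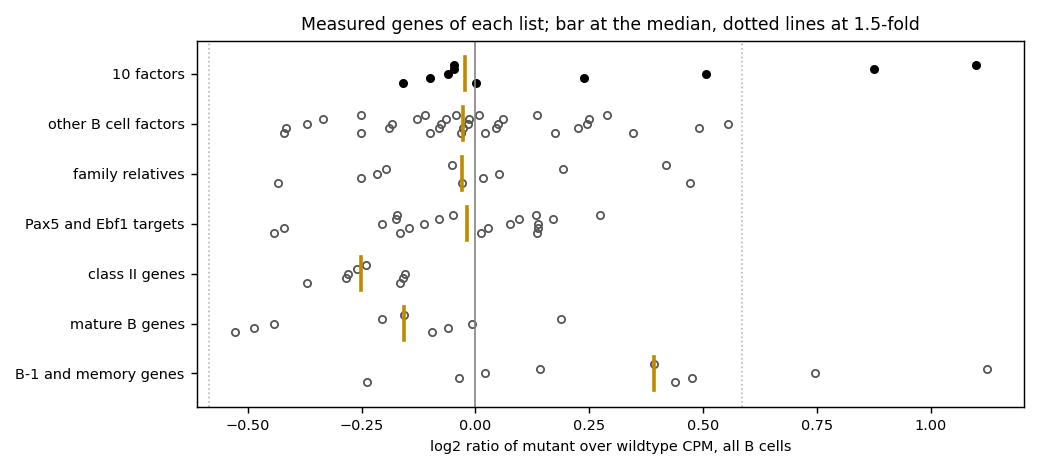
Log2 ratio of mutant over wildtype CPM in all B cells for the 10 factors (filled) and the measured genes of 6 other lists (open), each row 1 list, with a bar at its median and dotted lines at 1.5-fold. Sox4 and Zbtb32 are the 2 filled points right of the upper dotted line, and all 8 class II genes lie left of 0.

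Across 14 points, the 7 cell classes in each library, the genes most like each member were found by the Pearson correlation of log2(CPM + 10), a description over classes that share libraries and depth. Ebf1 was followed by Gm43291 (0.998), the desaturase gene Scd1 (0.997) and Gm43603 (0.996), and Pax5 by Man1a, Gm43291 and Ebf1 (0.990). Spib was most like Mzb1 (0.988), a chaperone of antibody secretion, Pmf1 and Siglecg, an inhibitory receptor of B cells. Bhlhe41 was most like Pafah1b3 (0.983), and Zbtb32 like Dnajc7 (0.950), Pafah1b3 (0.940) and Bhlhe41 (0.937). Mef2c was most like Serp1, Syk and Tcf4 (0.968), Bach2 like Smap2, Cd55 and Il16 (0.969), and Irf4 like Swap70, Smim14 and Trim7 (0.980). Irf8 was most like Cr1l (0.956), Lat2 and Arhgdia, and Sox4 had no close match, with Nat10 at 0.832.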

How the data were processed

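The deposited files were raw UMI counts per gene and barcode for 27998 genes and 737280 barcodes in each library, made by the authors with Cell Ranger 2.1.1 on mm10, per the submitters' processing notes. Per the labels' protocols, live Ter119-negative cells were sorted from pooled blood of 3 mice, with 2000 cells targeted per library.

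Cells had at least 800 UMIs, 200 genes and at most 10% mitochondrial UMIs. A cell took a class when at least 2 UMIs and 75% of its marker UMIs were of 1 list. Barcodes of mixed markers stayed unassigned (550 mutant and 529 wildtype), and 172 mutant and 156 wildtype B cells had a marker share of 75 to 90%. No doublet caller was applied in the values reported; removing Scrublet scores above 0.2 (scanpy 1.11.5) is an alternative. UMIs were summed per class and library and scaled to CPM. Ratios carry exact conditional (Clopper-Pearson) intervals, levels exact Poisson intervals and shares Clopper-Pearson intervals, all at 95% and without adjustment for the number of genes. The call method was tested on simulated data. Where no UMI was seen, 3 counts set the limit. Plasmacytoid dendritic cells (0 mutant, 1 wildtype) were not compared.

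The 10 members, the gene lists and the classes were chosen with earlier results of these data known. All 10 members are named, with the called genes and the 3 with the most UMIs of each list. Groupings by Vpreb3 alone and by Zbtb32 or Bhlhe41 within deep cells were added after the values were seen. Leaving out the cells with Zbtb32 or Bhlhe41 was added then too. Analyses used Python 3.11.15, scipy 1.17.1, pandas 2.3.3 and matplotlib 3.10.9.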

Additional observations from a re-analysis of the deposited data

Results flagged for a closer look

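Ebf1 ran in opposite directions in 2 cell classes: its mutant over wildtype ratio was 1.57 in T cells and 0.831 in Vpreb3/Cd24a B cells, and the difference between the classes was not tested. Spib, Bhlhe41, Ebf1 and Irf8 had intervals off 1 in the free RNA of barcodes with at most 20 UMIs, which the comparisons of cells do not use. Spib was at 96.1 CPM in mutant and 36.9 CPM in wildtype barcodes, a ratio of 2.60, and Bhlhe41 at 50.6 and 13.03 CPM, a ratio of 3.88 (1.504 to 11.8) from 20 and 6 UMIs, under the minimum of 50. Ebf1 had a ratio of 1.30 (1.04 to 1.63), and Irf8 was called lower in the mutant library, at 0.488 (0.342 to 0.686). In free RNA 8.85% of measured genes were called.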

How the results depend on the processing

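No paired analysis was possible because each genotype had 1 library and the labels give no replicate numbers. Of 804 values of single members under the alternatives, 773 stayed within the counting interval of the reported value and 30 moved outside it. Direction was checked only for called members, and 1 of their values reversed. It was Zbtb32 in other B cells, which had a ratio of 0.980 with cells thinned to 800 UMIs. Of the members, 2 were called in B cells as reported, 1 with cells thinned to 800 UMIs (Spib in place of Sox4 and Zbtb32), 1 with a 2-fold rule (Sox4) and 4 with no fold in the rule. The number of all genes called, 275 as reported, was 432 with free RNA subtracted, 463 without a count minimum, 55 with a 2-fold rule and 866 with no fold. The ratio of shares of the Vpreb3/Cd24a class, 1.44 as reported, was 1.75 with at least 2 UMIs of Vpreb3 alone, an alternative chosen after seeing the data. Over the alternatives the ratio in B cells ran from 1.36 to 1.67 for Spib, from 1.40 to 2.57 for Sox4, from 1.08 to 1.97 for Zbtb32 and from 1.10 to 1.98 for Bhlhe41. Without cells of 3000 or more UMIs, also chosen after seeing the data, Spib was at 1.65 and past the call, and Zbtb32 at 1.52 (0.622 to 3.93). The scaling alternatives moved no median of all genes by over 0.1 on the log2 scale. Leaving out a replicate was not possible with 1 library per genotype. Free RNA was estimated at 11.9% of the UMIs of mutant and 9.70% of wildtype B cells, which limits what low levels outside B cells can show.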
